A study of Mus musculus with 7 samples.

Results

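The insulin-like growth factor 1 (IGF1) axis was examined in whole skeletal muscle of mice through 10 genes: the ligand Igf1, its receptor Igf1r, the growth hormone receptor Ghr, the receptor substrate Irs1 and the 6 binding proteins Igfbp2, Igfbp3, Igfbp4, Igfbp5, Igfbp6 and Igfbp7. The rule lists the genes by symbol and uses no measured value, and the symbols were matched to the array annotation. The genes were, however, chosen with earlier results of these data known. They are 10 of the 22180 genes that had an array feature carrying a single symbol. Irs1 had a second feature, which read between 5.24 and 5.76 log2 units, below every array's median, and the brighter one was used. All 10 passed the filter on low signal, which asked that 2 arrays or more reach their own array's median and kept 13364 genes for testing.

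RNA of whole muscle was hybridized to 7 Affymetrix arrays: 3 of young WT mice (C57BL/6, wild type, 2 to 3 months old), 2 of aged WT mice (C57BL/6, wild type, 24 months old) and 2 of aged MISR mice (C57BL/6, MISR genotype, 24 months old). MISR mice carry a transgene for the IκB super-repressor, which blocks NF-κB, driven without induction by the muscle creatine kinase promoter, so that it acts in muscle fibers and not in satellite cells. The study compared the groups to find genes that were alike in young WT and aged MISR muscle and different in aged WT muscle. All values are log2 signals after robust multi-array averaging (RMA), and each array is named by its group and its labelled replicate number: young WT 1, 2 and 3, aged WT 2 and 3, aged MISR 1 and 2. The methods give commercial colonies as the source of C57BL/6 mice and in-house breeding for the MISR line. They do not say which WT mice went on the arrays. For its regeneration and satellite cell work, the study kept aging MISR mice together with WT controls of the same age. If the array mice had the 2 sources named, genotype and origin cannot be told apart. There is no young MISR array here. Neither the labels nor the methods give the sex of the mice, the muscle taken or whether each array was a different animal, and p-values therefore measure only the spread between these arrays. In whole tissue, fewer cells of a type and less RNA per cell cannot be told apart.

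Growth hormone, acting through its receptor and the kinase JAK2, switches on Igf1 in the liver, which supplies the blood, and in muscle itself, where the factor acts locally. IGF1 binds the receptor tyrosine kinase IGF1R, which phosphorylates IRS1 and engages PI3-kinase, Akt and mTOR, a route known for driving protein synthesis and fiber growth and for holding FoxO transcription factors out of the nucleus. The IGF binding proteins hold the ligand outside the cell. They lengthen its life and set how much reaches the receptor.

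The 7 array medians lay between 5.86 and 5.93. All 7 myofiber markers read at or above the array median in all 7 arrays, and Ckm and Acta1, muscle creatine kinase and skeletal actin, read between 13.34 and 13.66, as the labelled tissue would have it. Nfkbia, which encodes IκBα, read 9.01, 8.98 and 8.94 in young WT, 8.55 and 7.96 in aged WT, with 8.18 and 8.94 in aged MISR. No source here says whether its probes read the transgene, and these values do not check the genotype. Some arrays stood apart in their cell markers. Aged MISR 1 lay outside the other 6 arrays for 39.1% of the genes tested. In it markers of megakaryocytes and platelets (median 0.98 above the mean of the 7 arrays) and neutrophils (1.03) were high. Ibsp, the 1 tested gene of 6 bone markers, read 9.07 in aged MISR 1 against 5.16 to 7.02 elsewhere. Aged MISR 2 lay outside the other 6 arrays for 30.8% of genes, with adipocyte markers high (0.81) and neutrophil markers low (-1.40). Any 1 of 7 like arrays is the highest or lowest for a good part of the genes. These shares were not computed for the other arrays, so they do not by themselves set the aged MISR arrays apart. In aged WT 2, markers of tendon (-0.51) and of fibro-adipogenic progenitors and fibroblasts (-0.48) were low. Values without 1 of these arrays are given beside the genes that they moved most.

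The stretches before the transcription start of Igf1 and Igfbp6 are shown because these genes gave the largest differences between groups in which the arrays did not overlap, and because NF-κB, the factor blocked in MISR fibers, recognises short sites of the κB kind. Both are RefSeq sequence of mouse build GRCm38.p6, plus strand, 250 bases written from 5′ to 3′ and ending at the base before the start. The Igf1 stretch is chr10:87860861-87861110, and lies inside the gene, whose outermost RefSeq start is at base 87858265 of chromosome 10. The Igfbp6 stretch is chr15:102143936-102144185. Capitals mark a κB-like match, defined as GGG and CC with 5 bases of any kind between them, read on either strand.
Igf1: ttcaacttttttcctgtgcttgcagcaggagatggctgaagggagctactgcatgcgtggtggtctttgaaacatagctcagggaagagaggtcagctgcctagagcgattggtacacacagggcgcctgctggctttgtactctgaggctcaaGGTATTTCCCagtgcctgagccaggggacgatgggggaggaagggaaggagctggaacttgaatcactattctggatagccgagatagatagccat
Igfbp6: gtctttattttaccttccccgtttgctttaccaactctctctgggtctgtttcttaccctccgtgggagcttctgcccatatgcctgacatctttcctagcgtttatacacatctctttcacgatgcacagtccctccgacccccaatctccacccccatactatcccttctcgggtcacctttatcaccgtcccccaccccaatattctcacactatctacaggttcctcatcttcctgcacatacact
The Igf1 stretch held 1 such match, on the reverse strand, whose first base lay at -96 from the start, and the Igfbp6 stretch held none. RefSeq windows of 300 bases (250 before and 50 after a start) were at hand for all 10 genes, 12 windows in all, since Igfbp2 and Ghr had 2 each. A κB-like match was in 8 of the 12 windows and in 50.8% of all 32851 windows of that length. No window of the 10 genes held TTCNNNGAA (STAT5-like, in 8.30% of all windows) or GTAAACA (FoxO-like, in 3.65%), searched on both strands. These are matches of letters only.

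The ligand gave the largest difference of the axis between aged and young muscle. Igf1 read 9.01, 8.96 and 8.67 in young WT 1, 2 and 3, 7.84 and 8.14 in aged WT 2 and 3, with 7.92 and 8.37 in aged MISR 1 and 2. All 4 aged arrays lay below all 3 young arrays, and the aged WT and aged MISR arrays overlapped.

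**Figure D1:**
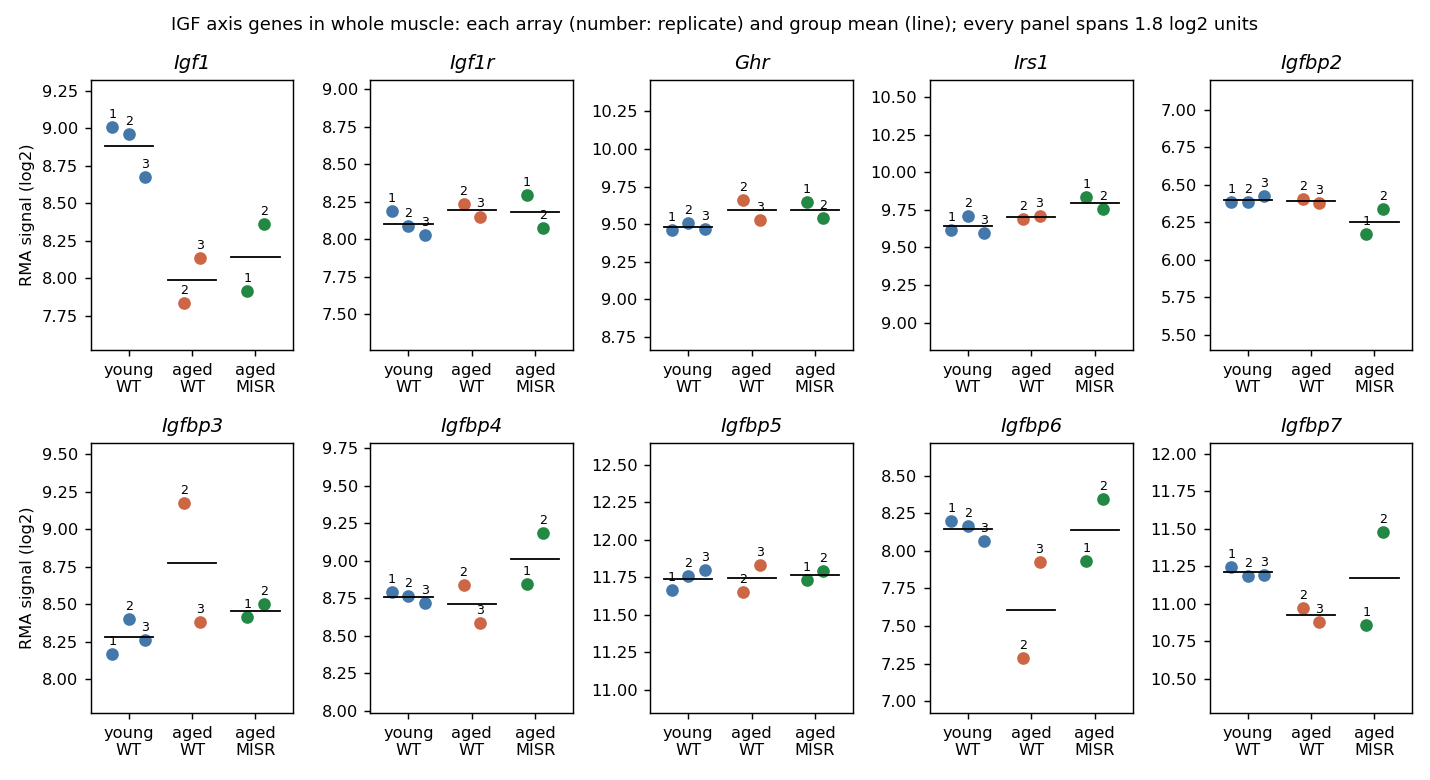
Log2 RMA signal of the 10 IGF axis genes, 1 panel a gene, each spanning 1.8 log2 units; points are arrays (the number is the replicate), lines are group means, and levels of different genes are not comparable. Igf1 is lower in all 4 aged arrays (7.84 to 8.37) than in the young WT arrays (8.67 to 9.01), and for Igfbp3 and Igfbp6 the aged WT 2 array stands far from aged WT 3.

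The mean Igf1 signal was 8.88 ± 0.18 in young WT (SD, n = 3), 7.99 ± 0.21 in aged WT (SD, n = 2) and 8.14 ± 0.32 in aged MISR (SD, n = 2). Aged WT against young WT gave a log2 difference of -0.89 (SE 0.17, 95% interval -1.29 to -0.50), or 53.8% of the young signal. It did not pass the threshold of 0.05 after adjustment over all genes (limma, adjusted p = 0.0924; unadjusted p = 0.000982), and 141 of the 13364 genes had a smaller p. By size, 34 genes had a lower difference, a count of falls only, whereas the 141 take in both directions. Aged MISR against young WT gave -0.74 (SE 0.17, 95% interval -1.13 to -0.35), or 59.8% of the young signal, and did not pass either (limma, adjusted p = 0.107). Between aged MISR and aged WT the Igf1 difference was 0.15, with a 95% interval from -0.28 to 0.58 that holds 0 and a limma adjusted p of 0.768.

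For Igf1, leaving out single arrays moved aged WT against young WT between -1.04 and -0.74, and aged MISR against young WT between -0.97 and -0.52. Without aged MISR 2, the array with high adipocyte markers, Igf1 in aged MISR against young WT passed at -0.97 (limma, adjusted p = 0.0467). Without aged MISR 1 it was -0.52 (adjusted p = 0.231). With array weights in the fit, Igf1 in aged WT against young WT passed at -0.93 (limma, adjusted p = 0.0484), and it passed under no other alternative at the 0.05 threshold. Over all alternatives the adjusted p of Igf1 ran from 0.0484 to 0.363 in aged WT against young WT and from 0.0467 to 0.380 in aged MISR against young WT.

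Markers of other cells differed between the groups as well. Of 12 markers of fibro-adipogenic progenitors and fibroblasts, the connective tissue cells between fibers, 11 were tested, and all 11 had a lower mean in aged WT than in young WT (median log2 difference -0.49). The median of the 11 about each gene's own mean was 0.05 to 0.18 for young WT, then -0.48 and -0.16 for aged WT 2 and 3, with -0.07 and 0.32 for aged MISR 1 and 2. Their summed linear signal was 11483 to 12018 in young WT, 8730 to 9797 in aged WT and 12111 to 12594 in aged MISR. Col1a1, a collagen chain named here after its values were seen, carried much of the sum in aged MISR 1, where it read 11.22 against 8.72 to 9.96 elsewhere. Without it the sum was 9726.5 in aged MISR 1 and 12004 in aged MISR 2, whereas the young WT arrays gave 10487 to 11065 and the aged WT arrays 8309 to 9167. With Col1a1 left out, the sum lay below the young arrays in both aged WT arrays and in aged MISR 1. It lay above them in aged MISR 2. With Col1a1 kept, it lay above the young arrays in both aged MISR arrays. Single markers went both ways in aged MISR 1. Pdgfra read 9.01 there, against at most 8.93 in young WT, and Dcn 12.51, against at least 12.63. The first markers of the list, Pdgfra and Dcn, read no lower than 8.34 and 12.41 in any array.

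Markers of satellite cells, the stem cells of muscle, had a lower median in all 4 aged arrays than in the young ones. This median of the 6 markers, all tested, about each gene's own mean was 0.09 to 0.17 for young WT, then -0.11 and -0.13 for aged WT, with -0.22 and -0.05 for aged MISR. All 6 had a lower mean in aged WT than in young WT (median log2 difference -0.30) and 5 of 6 in aged MISR (median -0.28), with none passing. Their summed linear signal was 908 to 979 in young WT and 778 to 788 in aged WT. It was 933 in aged MISR 1, within the young range, and 842 in aged MISR 2. Vcam1, named here after its values were seen, was high in aged MISR 1, at 8.21 against 6.79 to 7.32 elsewhere. The sum of aged MISR 1 thus leaned on this gene, and its median was the lowest of all arrays. The part of fibroblasts and satellite cells in the Igf1 values was not tested.

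The receptors showed small differences. Igf1r, the receptor tyrosine kinase for IGF1, read 8.19, 8.09 and 8.03 in young WT, 8.24 and 8.15 in aged WT, with 8.29 and 8.08 in aged MISR. Its groups overlapped in all 3 comparisons, and its log2 differences were 0.09 in aged WT against young WT (95% interval -0.11 to 0.30), -0.0097 in aged MISR against aged WT (-0.24 to 0.22) and 0.08 in aged MISR against young WT (-0.12 to 0.29). None passed (limma, adjusted p of 0.628, 0.981 and 0.615). The Igf1r difference of aged MISR from young WT was -0.03 without aged MISR 1 and 0.19 without aged MISR 2.

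Ghr, through which growth hormone reaches the cell, read 9.46, 9.51 and 9.47 in young WT, 9.66 and 9.52 in aged WT, with 9.64 and 9.54 in aged MISR. Its 4 aged arrays all lay above the 3 young arrays, by as little as 9.52 against 9.51. The difference was 0.11 in both aged groups against young WT (95% intervals -0.05 to 0.28 in each, limma adjusted p = 0.469 for aged WT and 0.408 for aged MISR) and -0.0011 between aged MISR and aged WT (-0.18 to 0.18). Without aged WT 2 the Ghr difference of aged WT from young WT was 0.04, and without aged MISR 1 that of aged MISR was 0.06.

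Irs1, the docking protein that the activated receptor phosphorylates, read 9.61, 9.71 and 9.60 in young WT, 9.69 and 9.71 in aged WT, with 9.83 and 9.75 in aged MISR. Both aged MISR arrays were above all 5 others. The log2 difference was 0.15 against young WT (95% interval -0.0017 to 0.31, limma adjusted p = 0.269), 0.09 against aged WT (-0.08 to 0.26, adjusted p = 0.631), and 0.06 in aged WT against young WT (-0.10 to 0.21, adjusted p = 0.680).

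**Figure D2:**
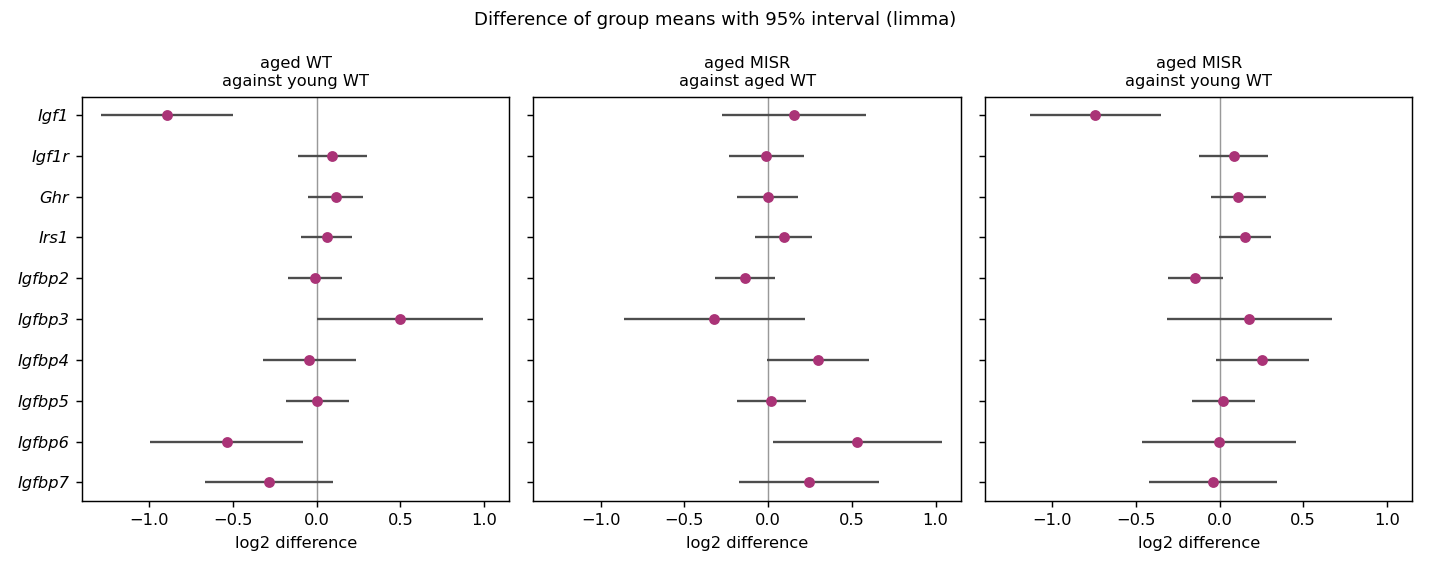
Log2 difference of group means for the 10 genes (points) with 95% intervals from the limma fit (bars), 1 panel for each comparison. The Igf1 intervals against young WT end below 0 (at -0.50 for aged WT and -0.35 for aged MISR), the Igfbp6 interval ends below 0 in aged WT against young WT and starts above 0 in aged MISR against aged WT, and no gene passed after adjustment.

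Among the binding proteins, Igfbp6 was the 1 gene of the axis with the pattern that the study had looked for. Igfbp6, a binding protein known for its preference for IGF2 over IGF1, read 8.20, 8.16 and 8.06 in young WT, 7.29 and 7.92 in aged WT, with 7.93 and 8.35 in aged MISR. Both aged WT arrays were below all 5 others, although aged WT 3 (7.92) and aged MISR 1 (7.93) nearly met. Over all genes tested, 13.9% had both aged WT arrays outside both other groups, so that 1 of 10 was no more than the background.

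The Igfbp6 log2 difference was -0.54 for aged WT against young WT (SE 0.19, 95% interval -0.995 to -0.08, limma adjusted p = 0.258) and 0.53 in aged MISR against aged WT (SE 0.21, 95% interval 0.03 to 1.04, adjusted p = 0.383). Aged MISR and young WT differed by -0.0031 (95% interval -0.46 to 0.46). The 2 aged WT arrays of Igfbp6 were 0.635 log2 units apart, wider than for 98.6% of genes. Without aged WT 2 the difference from young WT was -0.22 and that of aged MISR from aged WT 0.22; without aged WT 3 they were -0.85 and 0.85. Leaving out aged WT 2 and aged MISR 2 together brought the difference between aged MISR and aged WT to 0.01.

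The fibroblast markers differed in the same direction as Igfbp6 between the aged groups: all 11 tested had a higher mean in aged MISR than in aged WT (median log2 difference 0.46), and their median was lowest in aged WT 2, where Igfbp6 was lowest. Tendon markers, 6 of 7 tested, had a summed signal of 1716 to 1808 in the young arrays. It was 935 in aged WT 2 against 1817 in aged WT 3, with 1179 in aged MISR 1 against 1738 in aged MISR 2. Their part in the Igfbp6 values was not tested.

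Igfbp3, the main carrier of IGF1 in blood, read 8.17, 8.40 and 8.26 in young WT, 9.18 and 8.38 in aged WT, with 8.41 and 8.50 in aged MISR. One array, aged WT 2, was far above the other 6, and aged WT 3 lay within the young range. Both aged MISR arrays were just above the young ones. The 2 aged WT arrays of Igfbp3 were 0.796 apart, a gap wider than for 99.3% of genes. For aged WT against young WT the Igfbp3 difference was 0.50 (95% interval 0.0052 to 0.99, limma adjusted p = 0.313); it was 0.10 without aged WT 2 and 0.90 without aged WT 3. Aged MISR was 0.18 from young WT (-0.32 to 0.67, adjusted p = 0.658) and -0.32 from aged WT (-0.86 to 0.22, adjusted p = 0.610), and the last value turned to 0.08 without aged WT 2.

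Igfbp7, which binds IGFs only weakly and is made by vessel cells, read 11.25, 11.19 and 11.19 in young WT, 10.97 and 10.88 in aged WT, with 10.86 and 11.48 in aged MISR. Both aged WT arrays were below all young WT arrays, while the aged MISR arrays were the lowest and the highest of the 7. The difference was -0.28 in aged WT against young WT (95% interval -0.67 to 0.10, limma adjusted p = 0.431), 0.25 in aged MISR against aged WT (-0.17 to 0.66, adjusted p = 0.613) and -0.04 in aged MISR against young WT (-0.42 to 0.34, adjusted p = 0.912). The 2 aged MISR arrays of Igfbp7 were 0.617 apart (wider than for 96.8% of genes). Against young WT the difference was 0.27 without aged MISR 1 and -0.35 without aged MISR 2, so that its direction was set by which of these arrays was kept.

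Sums of vessel markers were lowest in the aged WT arrays and highest in aged MISR 2. In aged MISR 1, where Igfbp7 was lowest, they lay above both aged WT arrays and below the young ones. The summed signal of the 7 smooth muscle and pericyte markers, all tested, was 7294 to 7508.5 in young WT, 6394 to 6422 in aged WT, with 6759.6 in aged MISR 1 against 8953 in aged MISR 2. For the 10 endothelial markers, all tested, it was 5322 to 5655 in young WT, 4813.5 to 4898 in aged WT, with 5224 in aged MISR 1 against 6475 in aged MISR 2. Their part in the Igfbp7 values was not tested.

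Igfbp4, a binding protein that restrains IGF1 until it is cut by the protease PAPP-A, read 8.79, 8.77 and 8.72 in young WT, 8.84 and 8.59 in aged WT, with 8.84 and 9.18 in aged MISR. Aged MISR 2 was the highest array, and aged MISR 1 was above the other 5 by a margin that vanishes on rounding (8.84 against aged WT 2). The difference was 0.30 in aged MISR against aged WT (95% interval -0.0046 to 0.60, limma adjusted p = 0.419), 0.26 against young WT (-0.02 to 0.53, adjusted p = 0.294) and -0.04 in aged WT against young WT (-0.32 to 0.23, adjusted p = 0.877). Without aged MISR 2 the Igfbp4 difference of aged MISR was 0.13 from aged WT and 0.09 from young WT.

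**Figure D3:**
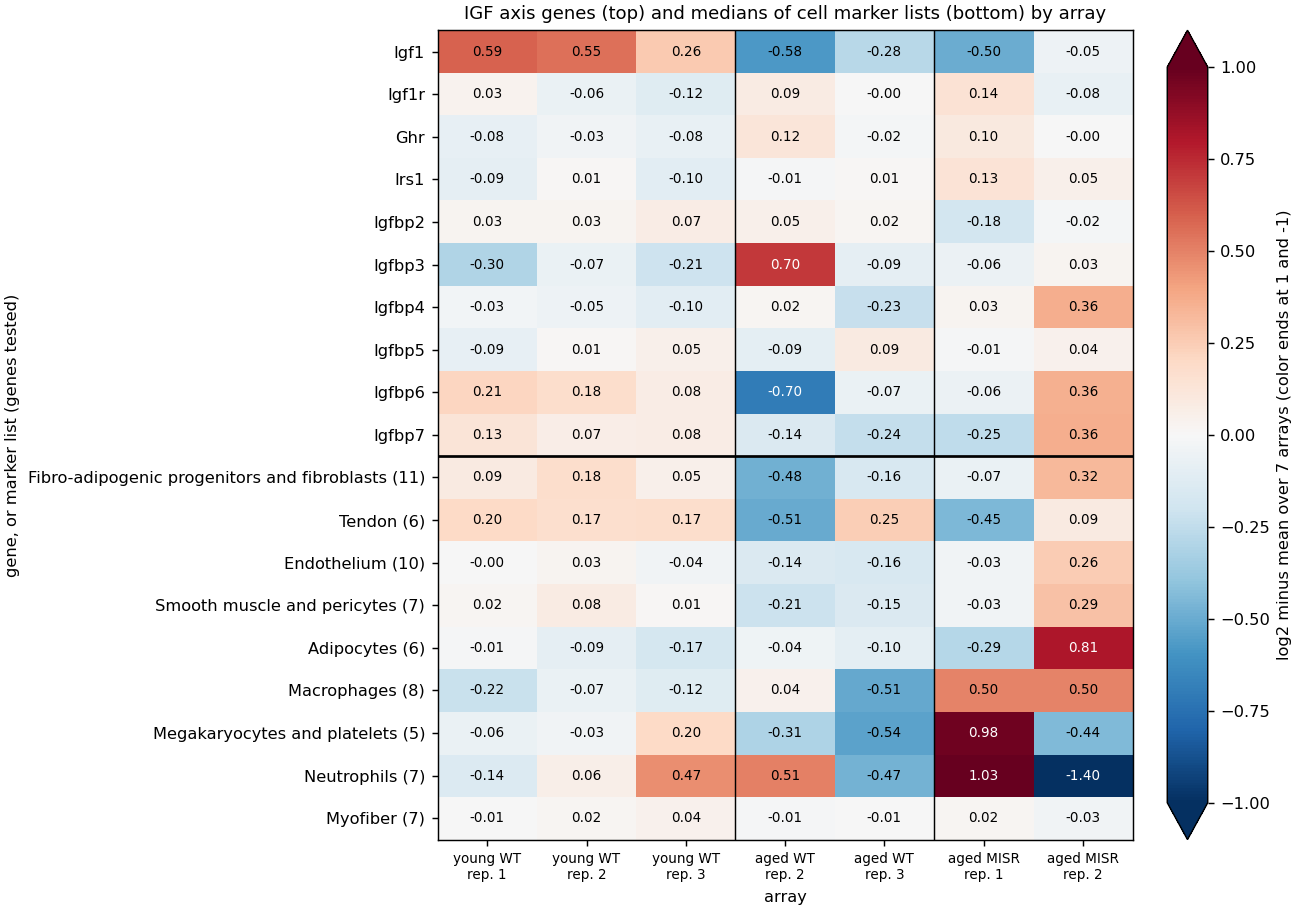
Log2 signal of each IGF axis gene (top) and median over each list of cell marker genes (bottom; genes tested in parentheses) in the 7 arrays, after subtracting each gene's mean over the arrays; colors end at 1 and -1 and the printed numbers are the values. Igf1 is above its mean in the 3 young WT arrays (0.26 to 0.59), and Igfbp4, Igfbp6 and Igfbp7 are each 0.36 above in aged MISR 2. The median of the myofiber list stays between -0.03 and 0.04. Its single genes differ more: in aged WT against young WT they run from -0.47 (Mb) to 0.07 (Ckm), with none passing.

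Igfbp2 and Igfbp5 varied least among groups of the binding proteins. Igfbp5, a matrix-bound form known in muscle for its rise during myoblast differentiation, read 11.66, 11.76 and 11.80 in young WT, 11.65 and 11.83 in aged WT, with 11.73 and 11.79 in aged MISR. Its groups overlapped throughout, and its log2 difference was 0.0041 in aged WT against young WT (95% interval -0.18 to 0.19), 0.02 between the 2 aged groups (-0.19 to 0.22) and 0.02 in aged MISR against young WT (-0.16 to 0.21). Igfbp2, which circulates at high levels in the fetus, read 6.38, 6.38 and 6.43 in young WT, 6.40 and 6.38 in aged WT, with 6.17 and 6.34 in aged MISR. Both aged MISR arrays were below the others, and the difference was -0.15 from young WT (95% interval -0.31 to 0.02, limma adjusted p = 0.310), -0.14 from aged WT (-0.32 to 0.04, adjusted p = 0.512) and -0.0089 in aged WT against young WT (-0.17 to 0.15, adjusted p = 0.962). Without aged MISR 1 the Igfbp2 difference of aged MISR was -0.06 from young WT and -0.05 from aged WT. The Igfbp2 signal lay close above the array medians.

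Across the axis, 0 of 10 genes passed in any of the 3 comparisons. After adjustment, 24 of 13364 genes (0.18%) passed in aged WT against young WT, 7 (0.0524%) between the aged groups and 79 (0.591%) in aged MISR against young WT, shares against which 0 of 10 says little about the axis. At an unadjusted limma p under 0.05, 3 axis genes (Igf1, Igfbp3 and Igfbp6) stood in aged WT against young WT, beside 15.7% of all genes. In aged MISR against aged WT 1 axis gene (Igfbp6) did, beside 12.2%, and in aged MISR against young WT 1 (Igf1), beside 18.8%. The 2-group test named in the study's methods, run on each gene alone, also gave 0 after adjustment.

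Arrays of the groups compared did not overlap for 4 of the 10 genes in aged WT against young WT (Igf1, Igfbp6 and Igfbp7 lower, Ghr higher), beside 37.7% of all genes. In aged MISR against aged WT the count was also 4 (Igfbp4, Igfbp6 and Irs1 higher, Igfbp2 lower), beside 35.8%. In aged MISR against young WT it was 6 (Igfbp3, Igfbp4, Ghr and Irs1 higher, Igf1 and Igfbp2 lower), beside 38%. For Igf1 and Ghr all 4 aged arrays were outside the young WT range, as for 16.6% of genes. Both aged MISR arrays lay outside all others for Igfbp2, Igfbp4 and Irs1, and the share of all genes with that pattern was not computed. Aged MISR 1 lay outside the other 6 arrays for 4 axis genes (Igf1r, Igfbp2, Igfbp7 and Irs1) and aged MISR 2 for 3 (Igfbp4, Igfbp6 and Igfbp7). Read against these shares of all genes, the counts say little that is particular to the axis. The median log2 difference over the 10 genes was -0.0024 in aged WT against young WT, 0.06 between the aged groups and 0.05 in aged MISR against young WT, beside 0.0077, 0.01 and 0.04 over all genes. The comparisons share arrays, so the columns of differences are not independent of each other. An exact permutation test of a single gene could not fall below 0.1 with 3 against 2 arrays or 0.333 with 2 against 2, and was therefore not used to call a gene.

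Igf1 also had the largest SD over the 7 arrays of the 10 genes (0.48). The tested genes whose array values lay nearest to those of Igf1, after each gene was centred on its own mean, were St3gal5 (root mean square difference 0.117 log2 units over 7 arrays), Cacna2d4, a calcium channel subunit (0.123), and Aplnr (0.130). St3gal5, a sialyltransferase of ganglioside synthesis, read 10.56, 10.59 and 10.27 in young WT, 9.76 and 9.81 in aged WT, with 9.70 and 10.12 in aged MISR. In it, too, aged MISR 2 was the highest of the aged arrays and young WT 3 the lowest of the young ones. Such likeness follows from the choice of St3gal5 by its nearness to Igf1 over the same arrays. Aplnr, the apelin receptor, read 8.26, 8.36 and 8.04, then 6.99 and 7.57, then 7.49 and 7.83 in the same order.

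Around the 10 genes, 60 others of the growth hormone and IGF pathway were listed, of which 57 had a feature with a single symbol and 51 were tested. Of these 51, 1 rose and 0 fell in aged MISR against young WT (Irs2), where 0.591% of all genes passed. In aged WT against young WT and between the aged groups 0 passed, beside 0.18% and 0.0524% of all genes. Shares as small as these leave 1 of 51 and 0 of 51 saying little that is particular to the pathway. The medians of the 51 were 0.0014 in aged WT against young WT, 0.02 between the aged groups and 0.02 in aged MISR against young WT, with 0.0077, 0.01 and 0.04 over all genes.

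Irs2, the sister docking protein of Irs1, read 8.61, 8.64 and 8.62 in young WT, 8.80 and 8.57 in aged WT, with 9.28 and 9.27 in aged MISR. Both aged MISR arrays were above all 5 others, and the young WT arrays lay within 0.03 of one another. Irs2 rose in aged MISR against young WT by 0.65 log2 units (SE 0.08, 95% interval 0.46 to 0.83, limma adjusted p = 0.0334). Against aged WT the difference was 0.59 (SE 0.09, 95% interval 0.39 to 0.79, adjusted p = 0.0825). The call against young WT was lost when any young WT array or aged MISR 1 was left out. All 8 macrophage markers were tested, and all had a higher mean in aged MISR than in aged WT (median log2 difference 0.69). Against young WT 7 were higher and 1 was lower (median 0.59). Their summed signal was 1244 to 1301 in young WT, 994 to 1404 in aged WT and 1912 to 1959.5 in aged MISR. The part of macrophages in the Irs2 values was not tested.

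**Figure D4:**
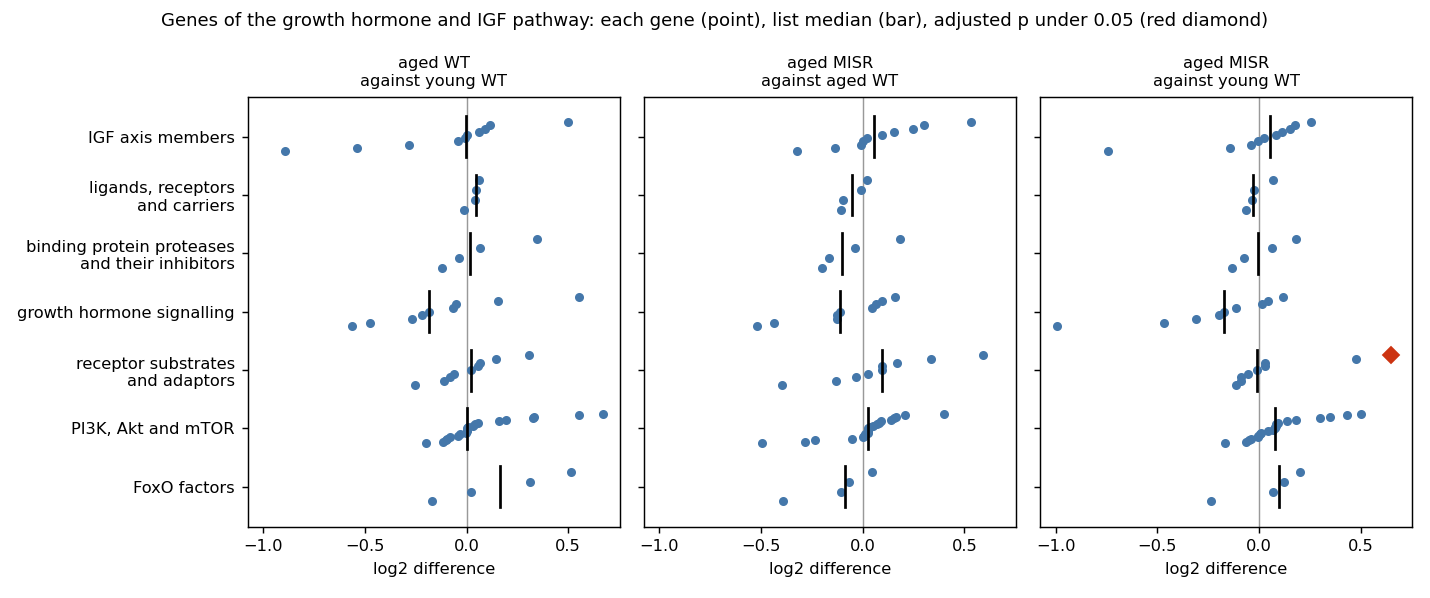
Log2 differences of the IGF axis genes and of 51 other tested genes of the pathway, by list, in the 3 comparisons; points are genes, bars are list medians, and the red diamond is the 1 gene with an adjusted p under 0.05. That gene is Irs2 in aged MISR against young WT (0.65), and the list medians lie between -0.18 and 0.17.

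Among the 9 genes of growth hormone signalling, all tested, 7 had a lower mean in aged WT than in young WT (median -0.18) and 6 in aged MISR than in young WT (median -0.17), with none passing. Jak2, the kinase bound to the growth hormone receptor, read 10.42, 10.39 and 10.23 in young WT, 9.62 and 9.95 in aged WT, with 9.91 and 9.84 in aged MISR. The 4 aged arrays of Jak2 were all below the young ones, with differences of -0.56 in aged WT (limma, adjusted p = 0.104) and -0.47 in aged MISR (adjusted p = 0.112). Cish, a feedback inhibitor that STAT5 induces, read 7.56, 7.73 and 7.58, then 7.52 and 6.78, then 6.90 and 6.36, and aged MISR was -0.99 from young WT (adjusted p = 0.113) and -0.52 from aged WT (adjusted p = 0.469). Socs2, another such inhibitor, was higher by 0.55 in aged WT than in young WT (adjusted p = 0.537), on arrays of 10.02 and 8.82, and lower in aged MISR than in aged WT (-0.44, adjusted p = 0.727).

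Of the receptor substrates and adaptors, 9 of 10 tested, Grb10, an adaptor that restrains the insulin and IGF1 receptors, differed by 0.31 in aged WT against young WT (limma, adjusted p = 0.450) and by -0.40 in aged MISR against aged WT (adjusted p = 0.476). Its 2 aged WT arrays, 8.95 and 8.28, lay far apart. Gab1, a docking protein, differed by -0.25 in aged WT against young WT (adjusted p = 0.189), and Grb14, a relative of Grb10, by 0.48 in aged MISR against young WT (adjusted p = 0.200).

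In the PI3K, Akt and mTOR list, 21 of 24 tested, the values nearest the threshold were those of Rictor, the defining subunit of mTOR complex 2. Rictor read 8.50, 8.65 and 8.52 in young WT, 9.29 and 9.16 in aged WT, with 9.09 and 8.89 in aged MISR. All 4 aged arrays were above the young ones, with differences of 0.67 in aged WT (95% interval 0.46 to 0.88, limma adjusted p = 0.0517) and 0.43 in aged MISR (0.22 to 0.64, adjusted p = 0.0920). Pik3r3, a regulatory subunit of PI3-kinase, was 0.55 from young WT in aged WT (adjusted p = 0.134) and 0.50 in aged MISR (adjusted p = 0.128). Between aged MISR and aged WT the genes farthest apart were Pik3r1, another regulatory subunit (-0.50, adjusted p = 0.594), and Inpp5d, a lipid phosphatase of blood cells (0.40, adjusted p = 0.447).

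The FoxO factors, 4 of 4 tested, had a median difference of 0.17 for aged WT against young WT, -0.09 between aged MISR and aged WT, and 0.10 between aged MISR and young WT. Foxo1 read 8.75, 8.89 and 8.74 in young WT, 9.51 and 9.11 in aged WT, with 8.85 and 8.99 in aged MISR, and both aged WT arrays were above the other 5. Its differences were 0.52 in aged WT against young WT (limma, adjusted p = 0.140) and -0.39 in aged MISR against aged WT (adjusted p = 0.322). Foxo3 gave 0.31, -0.11 and 0.20 in the 3 comparisons in the same order as the medians (adjusted p of 0.271, 0.768 and 0.373), and Foxo6 gave -0.24 in aged MISR against young WT (adjusted p = 0.282).

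The other ligands, receptors and carriers, 4 of 7 tested, stayed between -0.11 and 0.07 in all 3 comparisons. Igf2, the second ligand, was -0.11 from aged WT and -0.06 from young WT in aged MISR. Igf2r, which clears IGF2, was 0.05 and 0.07 from young WT in aged WT and aged MISR, and Igfals, which stabilises the circulating complex, was 0.06 from young WT in aged WT and -0.10 from aged WT in aged MISR. Igfbp1, Igfbpl1 and Insrr were under the signal filter. Of the proteases that cut binding proteins and their inhibitors, 4 of 6 were tested. Htra1, a serine protease, was 0.35 from young WT in aged WT (limma, adjusted p = 0.154) and 0.18 in aged MISR (adjusted p = 0.317). Pappa, which encodes PAPP-A, was -0.12 from young WT in aged WT (adjusted p = 0.660) and 0.18 from aged WT in aged MISR (adjusted p = 0.625), and its inhibitor Stc2 was -0.20 from aged WT and -0.14 from young WT in aged MISR (adjusted p of 0.857 and 0.840).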

How the data were processed

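Total RNA of whole muscle was labeled and hybridized to Affymetrix Mouse Gene ST arrays; the deposited values are log2 signals that the authors normalized by RMA, per the submitters' processing notes. For the RMA software version and annotation release, neither labels nor methods give a value. The deposited table holds 41345 features, of which 23521 carried 1 gene symbol in the platform annotation, 1820 several and 16004 none listed. Only features with 1 symbol were used, taking for each of 22180 genes the feature with the highest mean. A gene was tested if at least 2 arrays were at or above the array median.

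All 7 arrays were fitted together in limma 3.58.1 (R 4.3.3; lmFit and eBayes, 4 residual and 3.13 prior degrees of freedom), with 2-sided p-values adjusted by Benjamini-Hochberg over 13364 genes and called under 0.05. Differences are first group minus second. The study's methods name no test for the arrays. The few arrays limit the precision. The fitting code was tested on simulated data.

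The 10 genes, the pathway lists and the marker lists were chosen with earlier results of these data known. Outside the axis, text names were set by rule: pathway genes that passed, the 2 largest differences in each pathway list and comparison, the 3 genes nearest to Igf1, and the first 2 tested genes of a marker list. Nfkbia, Col1a1, Vcam1 and Mb were added after their values were seen. Alternatives changed the normalization, filter, choice of feature, block, variance model, array weights, groups fitted, test and threshold, and left out arrays.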

Additional observations from a re-analysis of the deposited data

How the results depend on the processing

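With 2 or 3 arrays a group, single arrays decide many values. Of 597 alternative values for the differences of the 10 genes, 552 kept direction and side of the threshold, 42 turned direction and 3 newly passed; the cause was not tested. Alternatives that change only the filter, the variance model, the test or the threshold leave a difference as it was and could not turn its direction. Igf1 kept its direction in aged WT and aged MISR against young WT under all 20 alternatives each. Its aged arrays all lay below the young ones, so leaving out arrays could not have turned it. No label says that a replicate number marks shared mice, and the deviations of same-numbered arrays, whose correlations are partly set by groups of 2 or 3, correlated at -0.224 to -0.008, so the numbers were not taken as pairs. A paired fit with a replicate block called 0 axis genes, 0 pathway genes and 0 of all genes in each comparison. Not every replicate number has an array in each group, and the block leaves fewer degrees of freedom. These counts of 0 therefore say little about pairing.

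The count of axis genes passing in aged WT against young WT, 0, became 1 (Igf1) with array weights and 1 at an adjusted p under 0.1. In aged MISR against young WT it was 0 to 1 over single arrays left out. For the other pathway genes, aged MISR against aged WT gave 1 (Irs2) at an adjusted p under 0.1. Aged MISR against young WT, 1 as reported, gave 0 with a second quantile normalization, with no signal filter, with the replicate block and with either pair of arrays left out (aged WT 2 with aged MISR 1 or with aged MISR 2, pairs chosen after seeing the data), 2 at an adjusted p under 0.1 and 0 to 2 over single arrays left out. Aged WT against young WT, 0 as reported, gave 1 (Rictor) with quantile normalization, median centring, a filter at the 60th percentile, a trended robust variance, array weights, a fit of the 2 groups and an adjusted p under 0.1, and 0 to 1 over single arrays left out. The count of axis genes with aged WT outside both other groups, 1, became 0 with quantile normalization. It was 5 without aged WT 2 and aged MISR 1, 3 without aged WT 2 and aged MISR 2, and 1 to 5 over single arrays left out. With fewer arrays, aged WT lies outside the others more easily for any gene. The share of all genes under these settings was not computed, so the higher counts say nothing particular to the axis.

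Over all genes, the 24 passing in aged WT against young WT became 49 with median centring, 0 without the filter, 57 with the stricter filter, 88 with the trended variance, 118 with weights, 162 in the 2-group fit, 1 by the methods' 2-group test and 0 to 162 without single arrays. The 7 in aged MISR against aged WT became 15, 4, 8, 10, 2, 0 and 3 under the same settings, and 0 to 113 without single arrays. The 79 in aged MISR against young WT became 34 with quantile normalization, 128 with centring, 21 without the filter, 26 with weights, 13 in the 2-group fit, 6 by the methods' test and 0 to 466 without single arrays.

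Differences near 0 changed sign. With median centring, Ghr (0.035) and Igf1r (0.027) turned in aged MISR against aged WT, and Igfbp6 (0.035) in aged MISR against young WT. With quantile normalization, Igf1r (-0.0083) and Igfbp5 (-0.0094) turned in aged MISR against young WT, and Igfbp5 (-0.012) in aged WT against young WT. With the replicate block, Igfbp5 in aged WT (-0.034) and Igfbp6 in aged MISR (0.071) turned against young WT. Without aged WT 2 and aged MISR 1, Ghr (0.015), Igfbp3 (0.12) and Igfbp5 (-0.043) turned in aged MISR against aged WT, and Igf1r (-0.026), Igfbp6 (0.20) and Igfbp7 (0.27) in aged MISR against young WT. Without aged WT 2 and aged MISR 2, Ghr (0.12), Igf1 (-0.22), Igf1r (0.14), Igfbp3 (0.032), Igfbp5 (-0.10) and Igfbp7 (-0.014) turned in aged MISR against aged WT, and Igfbp5 (-0.0059) in aged MISR against young WT. Leaving out single arrays gave, in aged MISR against aged WT, -0.069 to 0.067 for Ghr, -0.072 to 0.38 for Igf1, -0.12 to 0.10 for Igf1r, -0.72 to 0.077 for Igfbp3, -0.072 to 0.11 for Igfbp5 and -0.063 to 0.55 for Igfbp7. In aged MISR against young WT it gave -0.026 to 0.19 for Igf1r, -0.016 to 0.053 for Igfbp5, -0.21 to 0.20 for Igfbp6 and -0.35 to 0.27 for Igfbp7. In aged WT against young WT it gave -0.021 to 0.0050 for Igfbp2, -0.17 to 0.084 for Igfbp4 and -0.086 to 0.094 for Igfbp5. Igfbp2 was not tested under the stricter filter.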
